A study of Schmidtea mediterranea with 24 samples.

Results

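The genes described here are the 6339 transcripts of the planarian *Schmidtea mediterranea* that were measured well in both assays of the *fbl-1* knockdown (KD) experiment, out of 16575 in the tables (38.2%). A gene was taken when its mean over the 6 mRNA libraries and its mean over the 6 footprint libraries were each at least 200, a rule that uses levels and no difference between groups. All 6339 passed the filter on low values and made up 51.8% of the 12243 genes tested. Just outside the rule lay SMED30003950, with means of 206.8 for mRNA and 199.7 for footprints, and just inside it lay SMED30014037, with 200.2 and 250.0. For 365 of the genes (5.76%) the mean of 1 group or more lay under 200, so that they met the rule through the group where they were higher. Of the genes named below these are *fbl-1*, *slc49a4*, SMED30000902, SMED30018493, *GADD45GIP1*, *RPA2*, *MRPL27*, *FZD4* (SMED30023158), *FTMT*, *MVB12B* and Os01g0290100, whose differences are given as a description.

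Fibrillarin is the methyltransferase of the nucleolar particles that methylate the ribose of ribosomal RNA, and it takes part in the processing of the rRNA precursor. Planarians carry a pair of homologs, *fbl-1* and *fbl-2*. Ribo-seq sequences the mRNA fragments that ribosomes shield from nuclease, the footprints, and RNA-seq of the same tissue measures the mRNA itself. A gene whose footprints change more or less than its mRNA has a changed translational efficiency (TE), the quantity that an altered ribosome would be looked for in. Planarian regeneration rests on neoblasts, the dividing stem cells of the animal, which also replace the epidermis.

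Asexual animals were fed bacteria that express double-stranded RNA against *fbl-1*, and the controls received *egfp*, a sequence the worm does not carry. Fragments labelled as head, trunk and tail were collected at 48 hours post amputation, many worms were pooled per replicate, and each lysate was divided between the 2 assays. There were 3 *egfp* KD and 3 labelled *fbl-1* KD libraries in each assay, 12 in all. A second experiment of 12 libraries compared *fbl-2* KD with its own *egfp* controls (labelled egfp 2x). Such pooled fragments hold every cell type, so a lower value can come from fewer cells of a type or from less RNA per cell, and these cannot be told apart.

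The deposited values were treated as reads multiplied by 1 factor per library and rounded, a form that was found in some libraries only. Library totals lay between 8778527 and 9493274 for mRNA and between 9116524 and 9854485 for footprints. The well-measured genes held 90.5 to 91.6% of each mRNA total and 92.4 to 93.5% of each footprint total. Their median mean value was 631 for mRNA and 642 for footprints, and none of them had a 0 in any of the 12 libraries. The median SD between replicates on the log2 scale was 0.159 and 0.121 for *egfp* KD and *fbl-1* KD mRNA, and 0.203 and 0.205 for the footprints. The footprint libraries egfp-3 and fbl-1_1 stood farthest from their own groups, with median deviations of 0.307 and 0.313 on the log2 scale against 0.142 to 0.208 for the other footprint libraries. Gaps between their low values correspond to 1.56 and 1.52 units per read, so these libraries held fewer reads than their totals. The mRNA library fbl-1-1 had such gaps at 1.31 units per read. No factor was determined for the other libraries.

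The targeted gene checks the labels, and it goes against them. *fbl-1* mRNA read 143, 130 and 129 in the *egfp* KD libraries and 1383, 981 and 753 in those labelled *fbl-1* KD. Its footprints read 338, 285 and 300 in the controls and 958, 690 and 833 under the knockdown label. Every library labelled *fbl-1* KD was thus above every control in both assays, by 2.90 on the log2 scale for mRNA (adjusted p = 3.41e-07, limma) and by 1.41 for footprints (adjusted p = 0.0122, limma). Reads from the fed RNA, exchanged labels and a raised transcript cannot be told apart here, so that the values of *fbl-1* have no settled meaning. All directions below are differences of the libraries labelled *fbl-1* KD. *fbl-2* did not meet the rule and is not among the genes described.

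The first question is whether any well-measured gene changed in TE. None of the 6339 passed an adjusted p of 0.05 in either direction in the limma fit (0% of all genes tested higher, 0% lower), and the smallest adjusted p was 0.877. At an unadjusted p under 0.05, 170 of the genes had a higher TE (2.68%, against 2.17% of all genes tested) and 208 a lower one (3.28%, against 2.79%). Both shares lie close to those of the whole table. The count depends on single mRNA libraries: the 378 genes became 598 when egfp-1 was left out, 195 for egfp-3, 212 for fbl-1-1 and 243 for fbl-1-3.

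TE changes of the well-measured genes were bounded narrowly, which a rule on levels in part builds in. The median replicate SD of *egfp* KD footprints was 0.203 for these genes and 0.464 for the other genes tested. Among the well-measured genes the median TE change was 0.0, the middle 50% lay between -0.19 and 0.18, and 90% lay between -0.47 and 0.44 on the log2 scale. The median standard error was 0.237, so the typical change was smaller than its own error. A TE change above 0.8 was estimated for 18 of the genes (0.284%) and one below -0.8 for 36 (0.568%), where 6.03% and 3.72% of all genes tested lay past those limits. Among the 5904 other genes tested, 720 lay above 0.8 and 419 below -0.8, with a median 95% interval of 1.0 to either side against 0.51 for the well-measured genes. The 95% interval lay wholly within 0.8 of 0 for 4186 of the well-measured genes (66%) and for 502 of the others (8.5%). Within 1 of 0, that is within a doubling or halving, it lay for 5454 (86%) and 1321 (22.4%).

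**Figure D1:**
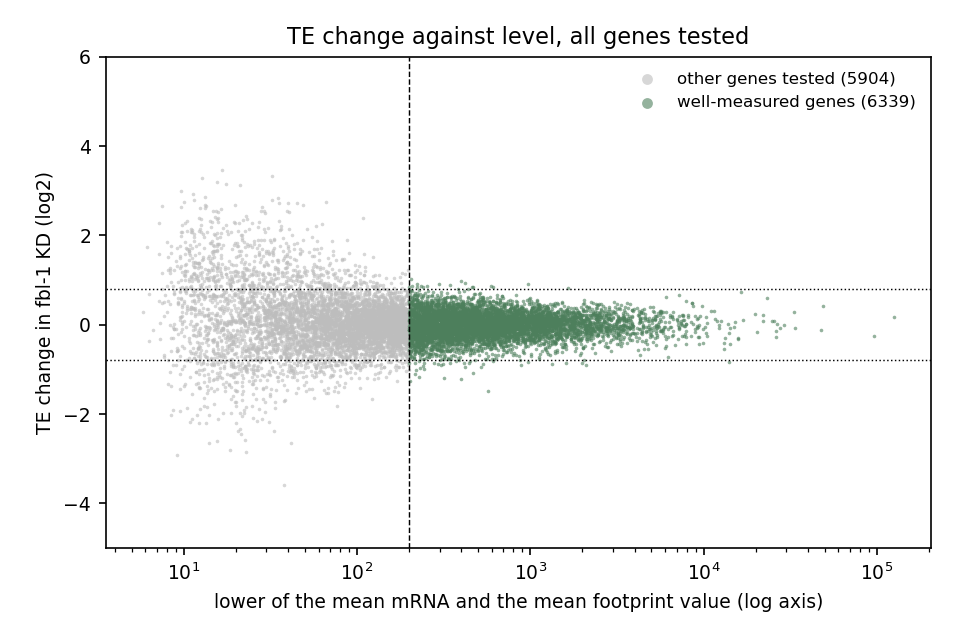
TE change in *fbl-1* KD (log2, y axis) against the lower of a gene's mean mRNA and mean footprint value (log axis), for the 6339 well-measured genes (green) and the 5904 other genes tested (grey). The dashed line marks the mean of 200, the dotted lines mark 0.8 above and below 0, and the spread narrows from left to right.

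Precision rose with level. For genes whose lower mean was 200 to 400 the median interval reached 0.57 to either side, for 400 to 800 it reached 0.49, for 800 to 1600 it reached 0.44, and from 1600 upward 0.43. Above a lower mean of 1600, 871 of 914 genes (95.3%) had an interval within 1 of 0, against 1723 of 2284 (75.4%) at 200 to 400. The spread of the estimates themselves narrowed as well, from a 90% range of -0.56 to 0.49 in the lowest class to -0.40 to 0.36 in the highest.

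The genes also differed in TE level, the log2 ratio of footprints to mRNA over all 12 libraries. Its middle 90% ran from -0.92 to 1.05. Split into 5 classes of equal size by this level, the median TE change was between -0.04 and 0.02 in each. The class with the highest ratio held 19 genes with a higher and 55 with a lower TE at an unadjusted p under 0.05, whereas the other classes held 32 to 41 and 36 to 42. These counts describe unadjusted values, and no gene in any class passed the adjusted threshold.

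For *fbl-1* the TE change came to -1.49 (SE 0.28), with an adjusted p of 0.877 in limma and under the limit on its values given above. The next smallest p for TE belonged to *ATAD3B*, whose best match is an ATPase of the mitochondrial inner membrane. *ATAD3B* mRNA read 571, 561 and 513 in the controls and 797, 650 and 725 under *fbl-1* KD, and its footprints read 1339, 1156 and 1267 against 1016, 977 and 939. The groups did not overlap in either assay and differed in opposite directions, and the TE change was -0.75 (95% interval -1.12 to -0.39, unadjusted p = 0.000491, limma).

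*TOMM40*, *NUBP1* and *FAM50A* had lower footprint means under *fbl-1* KD, at mRNA changes between -0.11 and 0.33. *TOMM40*, the channel of the mitochondrial outer membrane import complex, had footprint values of 962, 924 and 898 in the controls and 490, 616 and 600 under *fbl-1* KD. Its TE change was -0.60 (SE 0.17, unadjusted p = 0.00333, limma), with an mRNA change of -0.11. *NUBP1*, an assembly factor for cytosolic iron-sulphur proteins, had footprint values of 379, 327 and 513 against 155, 329 and 204, which overlap, and a TE change of -1.20 (SE 0.33). *FAM50A*, a nuclear protein linked to splicing, had 416, 304 and 502 against 186, 231 and 189, with no overlap, and a TE change of -0.96 (SE 0.27).

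*GADD45GIP1*, a component of the mitochondrial ribosome, had footprint values of 303, 308 and 413 against 85, 179 and 143 and a TE change of -1.18 (SE 0.37), and it met the rule for footprints through the controls. *NUBP1* and *GADD45GIP1* leaned on the footprint libraries that stood apart: without egfp-3 and fbl-1_1 their TE changes were -0.77 and -0.73. *TOX4* (-0.73, a nuclear HMG-box protein), *API5* (-0.64, an inhibitor of apoptosis) and *DYNLL2* (SMED30023766, -0.90, a dynein light chain) also had a lower TE estimate.

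Of the genes without a name, the pair with the smallest p for a lower TE also had called footprint changes. SMED30000902 had footprint values of 570, 626 and 779 in the controls and 187, 283 and 275 under *fbl-1* KD, a fall of 1.41 (adjusted p = 0.0257, limma), at an mRNA change of -0.16. Its TE change was -1.25 (SE 0.30, unadjusted p = 0.00076, limma). SMED30026659 had footprint values of 620, 566 and 724 against 240, 294 and 262, a fall of 1.26 (adjusted p = 0.0174, limma), with a TE change of -0.82. Neither TE change passed the adjusted threshold.

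Among genes with a higher TE estimate, the smallest p belonged to *slc49a4*, a member of a solute carrier family. Its mRNA values were 243, 264 and 226 in the controls and 150, 198 and 147 under *fbl-1* KD, while its footprints read 412, 448 and 356 against 508, 614 and 536. The groups did not overlap in either assay, and the TE change was 1.02 (95% interval 0.52 to 1.52, unadjusted p = 0.000585, limma). It met the rule for mRNA through the controls, with means of 244 and 165, so its interval and p are given as a description. *ABCC1* (SMED30033764), an ATP-driven export pump, had level mRNA (change 0.01) and footprints of 350, 356 and 197 against 572, 559 and 543, with a TE change of 0.92 (SE 0.28). *TRPM3* (SMED30029075), a cation channel, had footprints of 566, 675 and 597 against 1048, 872 and 993 and a TE change of 0.58 (SE 0.18).

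The remaining named genes with the smallest p for a higher TE were of mixed function. *SSPO* (SMED30008350), matching a large secreted glycoprotein, is one of the most abundant: its footprints read 4574, 4381 and 4513 in the controls and 8929, 9583 and 11834 under *fbl-1* KD. Its footprints rose by 1.16 (adjusted p = 0.0111, limma) and its mRNA by 0.54 (adjusted p = 0.0214, limma), which leaves a TE change of 0.62 (SE 0.19). *PLB1*, a phospholipase of the digestive tract in mammals, had the same pattern, with footprints up by 1.21 (adjusted p = 0.0107, limma), mRNA up by 0.61 (adjusted p = 0.0121, limma) and a TE change of 0.60.

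*ELOVL4*, an elongase of very long fatty acids, showed the opposite composition. Its mRNA fell by 0.66 (adjusted p = 0.00432, limma) at footprints of 1073, 1017 and 925 against 823, 1017 and 960, and its TE change was 0.55. *DLEC1* (0.70), *STK3* (0.55, a kinase of the Hippo pathway), *IPO11* (0.49, a nuclear import receptor) and *NWD2* (SMED30002600, 0.66) followed. Without a name, SMED30014753 had a TE change of 0.84 (SE 0.23) and SMED30018493, which met the rule through its higher footprints under *fbl-1* KD, one of 0.79 (SE 0.24).

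**Figure D2:**
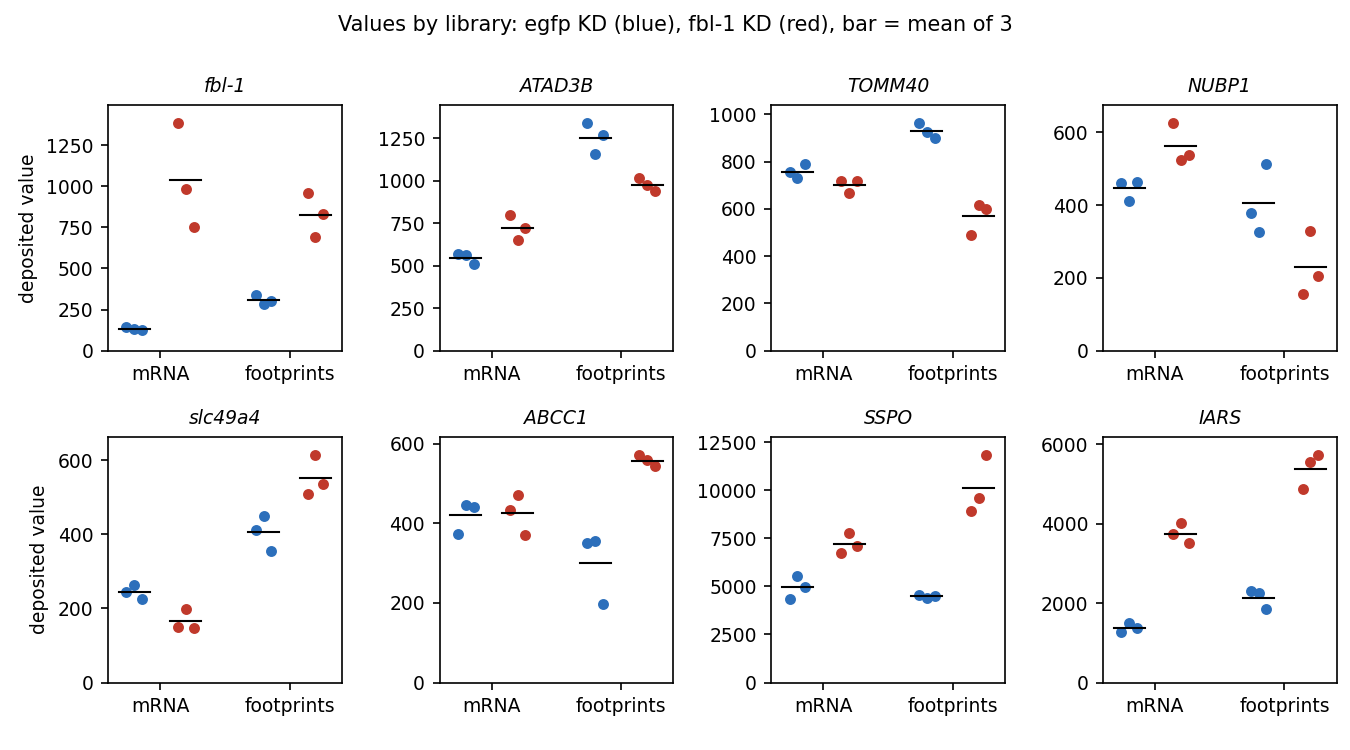
Deposited values (y axis, linear, from 0) of 8 genes in the 3 *egfp* KD (blue) and 3 *fbl-1* KD (red) libraries of each assay, with a bar at each mean. *fbl-1* is higher in the libraries labelled *fbl-1* KD, *ATAD3B* and *slc49a4* move in opposite directions in the assays, and *IARS* moves alike in both.

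In contrast to TE, mRNA levels changed in 512 of the genes. The mRNA of 287 was higher under *fbl-1* KD (4.53%, against 2.59% of all genes tested) and that of 225 was lower (3.55%, against 2.45%). The called changes ran in size from 0.41 to 2.90 for the higher and from 0.39 to 1.51 for the lower genes on the log2 scale. These counts lean on single libraries: the total of 512 became 181 when the mRNA library egfp-3 was left out, 146 for fbl-1-1 and 162 for fbl-1-3. With 1 variance prior for all genes it became 37.

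Footprint changes were called less often. The footprints of 44 genes were higher (0.694%, against 0.384% of all genes tested) and those of 51 lower (0.805%, against 0.488%). The total of 95 is fragile: it was 0 without the footprint library egfp-1 or without fbl-1_3, 16 without egfp-2, 14 without fbl-1_2 and 143 without egfp-3. With the libraries egfp-3 and fbl-1_1 both left out, an alternative chosen after the data were seen that removes the largest replicate spread from each group, 963 genes were called higher and 853 lower, the 95 among them. No TE change was called in that fit either, where the smallest adjusted p was 0.109 (limma).

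Footprint changes had the same sign as mRNA changes in 70.9% of all the genes and in 68.7% of those with no mRNA call. Of the 287 genes with higher mRNA, 278 (96.9%) had a footprint change of the same sign, with a median mRNA change of 0.63, a median footprint change of 0.50 and a median TE change of -0.11. Of the 225 with lower mRNA, 216 (96.0%) had the same sign in footprints, with medians of -0.61 for mRNA, -0.57 for footprints and 0.07 for TE. The mRNA values enter both the call and the TE change, so the sign of these TE medians is in part set by the choice of genes. The 95% interval of the TE change lay within 1 of 0 for 236 of the genes with higher mRNA (82.2%) and 193 of those with lower mRNA (85.8%). Over the 512 genes, across genes that are not independent, the slope of footprint on mRNA change was 0.85.

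There were 71 genes called in both assays, all in the same direction, which is 13.9% of the mRNA calls and 74.7% of the footprint calls. The 44 genes with higher footprints had a median mRNA change of 0.70 and those with lower footprints one of -0.69. All 95 had an mRNA change of the same sign as the footprint change.

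**Figure D3:**
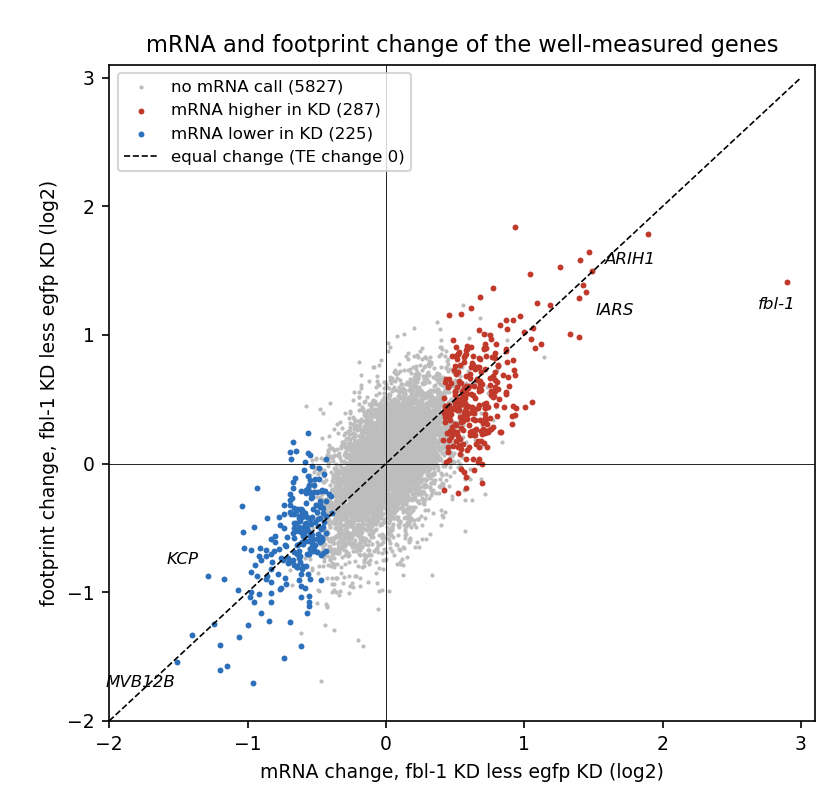
Footprint change (log2, y axis) against mRNA change (log2, x axis) of the 6339 well-measured genes, *fbl-1* KD less *egfp* KD, coloured where the mRNA change passed an adjusted p of 0.05 (287 higher, 225 lower). The dashed line marks equal change in both assays, and *fbl-1* lies farthest below it, at 2.90 for mRNA and 1.41 for footprints.

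Of the 5 named genes with the largest called mRNA rises, those other than *fbl-1* had TE changes between -0.11 and 0.18. *IARS*, which charges tRNA with isoleucine, had mRNA values of 1261, 1510 and 1370 against 3740, 4008 and 3500 and footprints of 2303, 2247 and 1859 against 4859, 5548 and 5727. It rose by 1.44 for mRNA (adjusted p = 2.7e-06, limma) and also for footprints (adjusted p = 0.00812, limma), with a TE change of -0.11 (95% interval -0.48 to 0.26). *CHAC1*, a glutathione-degrading enzyme of the amino acid stress response in mammals, rose by 1.42 and 1.39 with a TE change of -0.03. *ARIH1*, a ubiquitin ligase, rose by 1.49 for mRNA with a TE change of 0.01.

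*SLC9A2* (SMED30001068), a sodium-proton exchanger, rose by 1.26 for mRNA and 1.53 for footprints (TE change 0.27). *SFTPD*, a collagenous lectin, rose for mRNA by 1.40 (adjusted p = 0.000348, limma). Its footprints read 405, 386 and 288 against 535, 1661 and 1371, which do not overlap but vary, and their change of 1.58 did not pass the threshold (adjusted p = 0.0832, limma).

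Among the largest named falls, TE changes ran from -0.43 (*FTMT*) to 0.41 (*KCP*). *KCP*, matching a secreted regulator of BMP signalling and carrying the study's intestine label, is the most abundant of them. Its mRNA values were 57909, 69526 and 79690 in the controls and 26616, 32444 and 25648 under *fbl-1* KD, a fall of 1.29 (adjusted p = 0.00101, limma). Its footprints fell by 0.88 (adjusted p = 0.0346, limma), and its TE change was 0.41 (95% interval -0.09 to 0.90). *PRSS12* (SMED30005872), a serine protease, changed by -1.20 for mRNA and -1.41 for footprints (TE change -0.22). *ACSL5*, an enzyme that links fatty acids to coenzyme A, changed by -1.06 and -1.35 (TE change -0.29).

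*FTMT*, a ferritin, changed by -1.15 and -1.58. *ZBED9* fell by 1.24 in both, with a TE change of 0.0. The gene best matching the plant protein Os01g0290100, a cysteine desulfhydrase, fell by 1.40 for mRNA, with a TE change of 0.07. *MVB12B*, a subunit of the endosomal sorting complex, changed by -1.51 and -1.54, but 1 control mRNA library read 1086 where the others read 398 and 429.

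Gene groups were assembled by symbol, and here a limit of the names bears on every count. Only 1214 of the 6339 genes carry a name, taken from tables of the study that are held in part and ordered by mRNA change, so 27.4% of the named and 3.49% of the unnamed genes were called for mRNA. Named genes held 23 of the 170 with a higher and 60 of the 208 with a lower TE at an unadjusted p under 0.05, and their median TE change was -0.05. The part held of the study's *fbl-2* KD table is ordered by libraries that are not used for *fbl-1* KD, so counts restricted to it are given beside those of the larger groups, an alternative chosen after the data were seen.

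Aminoacyl-tRNA synthetases, which load amino acids onto tRNA, rose in mRNA for 13 of 14 well-measured members, where 4.53% of all the genes rose, and in footprints for 7, with medians of 0.88 and 0.82 on the log2 scale. None fell. The part held of the *fbl-2* KD table has 0 of these members, so all their names come from the table ordered by mRNA change. In the part held of that table, 280 of 746 well-measured genes rose in mRNA and 38 in footprints, which is the nearer share for this list. The median level of the synthetases in the libraries labelled *fbl-1* KD was 0.43 to 0.55 above the mean of the 6 mRNA libraries, against -0.55 to -0.42 in the controls, and in footprints 0.20 to 0.52 against -0.43 to -0.37. Their median TE change was -0.15, between -0.42 (*SARS*) and 0.17, and none reached an unadjusted p under 0.05. *CARS* rose by 1.40 for mRNA (adjusted p = 1.7e-05, limma) and 0.98 for footprints (adjusted p = 0.0257, limma), and *MARS* rose in mRNA (adjusted p = 6.54e-06, limma) and by 1.01 in footprints (adjusted p = 0.0155, limma).

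Cilium and axoneme genes, which build the motile cilia of the epidermis and of the excretory flame cells, rose in mRNA for 29 of 55 members and in footprints for 6, and fell for none. Over all the well-measured genes, 4.53% rose in mRNA and 0.694% in footprints. The median changes of the cilium and axoneme genes were 0.51 for mRNA, 0.45 for footprints and 0.02 for TE. The groups of libraries did not overlap in the median level of the list in either assay. *CCDC39*, an assembly factor of inner dynein arms, rose by 0.94 for mRNA (adjusted p = 0.00239, limma) with a footprint change of 0.38 and a TE change of -0.55 (SE 0.22). *RSPH1*, a radial spoke protein, had a TE change of -0.81 (SE 0.33). In the part held of the *fbl-2* KD table, 12 of 35 members rose in mRNA and none in footprints. Of all 1110 well-measured genes in that part, 139 rose in mRNA and 16 in footprints.

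Splicing factors, the proteins that remove introns from nuclear transcripts, had a median TE change of -0.36 over 18 genes against 0.0 over all the well-measured genes. Of the 18, 15 had a TE change below 0, 6 with an unadjusted p under 0.05, and none passed the adjusted threshold. Over all the well-measured genes, 3.28% had a lower TE at that p. *HNRNPLL* had footprints of 647, 514 and 758 against 627, 530 and 450 and mRNA of 219, 239 and 194 against 314, 280 and 311. *HNRNPLL* thus reached its TE change of -0.73 (SE 0.24) mostly through mRNA, which was 0.47 higher without passing the threshold (adjusted p = 0.0751, limma). *DDX23* (-0.77, SE 0.29) and *RBM25* (-0.86, SE 0.34) were alike, with mRNA changes of 0.56 and 0.57.

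*RBM25* also had lower footprints in every library labelled *fbl-1* KD, as did *SNRPG*, a core protein of the small nuclear ribonucleoproteins. Those of *SNRPG* read 389, 421 and 362 in the controls and 192, 275 and 247 under *fbl-1* KD, a change of -0.73 (adjusted p = 0.132, limma). Its mRNA read 932, 358 and 383 against 574, 547 and 563, so that the control mRNA varies more than the difference, and its TE change was -0.88 (SE 0.39), which ranged from -1.32 to -0.64 with 1 library left out. Over the list, the median footprint level was 0.12 to 0.18 in the control libraries and -0.29 to 0.10 in those labelled *fbl-1* KD, and the median mRNA level was lowest in the control egfp-3 (-0.35). Without that library the median TE change of the list was -0.29. Restricted to the 12 members in the part held of the *fbl-2* KD table it was -0.33, with 11 below 0 and 3 at an unadjusted p under 0.05. *SNRPG* also belongs to a list of lower TE that the study drew from these libraries. The part held of that list has 7 well-measured genes, among them *NUBP1*, *FAM50A*, *SSR4* and *MRPL27*.

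Other parts of the gene expression machinery gave smaller values. Of 13 translation factors 12 had a TE change below 0, with a median of -0.10 and 1 at an unadjusted p under 0.05, *EIF4EBP2* (-0.57, SE 0.24), which restrains cap-dependent initiation. The median was -0.24 without the footprint library fbl-1_1, and -0.27 over the 7 members in the part held of the *fbl-2* KD table. Ribosome biogenesis factors had a median of -0.26 over 11 genes with none at an unadjusted p under 0.05, led by *UTP18* (-0.63, SE 0.32). Of the 5 mitochondrial ribosomal proteins all were below 0, with a median of -0.30 and *MRPL27* lowest at -0.91 (SE 0.37). Their median footprint level was -0.83 in fbl-1_1, and the median TE change was -0.56 without egfp-3 and -0.18 without egfp-2.

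Of 11 cytosolic ribosomal proteins 5 fell in mRNA, where 3.55% of all the well-measured genes did. The list median was -0.58 for mRNA, and the median TE change was 0.08. *RPS12* fell by 0.91 (adjusted p = 0.00146, limma), *RPL28* by 0.83 (adjusted p = 0.00859, limma) and *RPS25* by 0.67 (adjusted p = 0.0112, limma). The list stood apart in 1 control mRNA library, egfp-1, at 0.71 against -0.14 and 0.04 in the other controls and -0.39 to -0.12 under *fbl-1* KD. Without it the median TE change was -0.13, of the opposite sign, and over the 8 members in the part held of the *fbl-2* KD table it was -0.08. Of those 8, 2 fell in mRNA, with a median mRNA change of -0.29. Of all 1110 well-measured genes in that part, 122 fell.

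Ion channels and solute carriers had median TE changes above 0, each smaller than the median standard error of its list, 0.26 in both. The 10 ion channels all had a TE change above 0, between 0.03 and 0.58 with a median of 0.17, and 1 of them (*TRPM3*, SMED30029075) had an unadjusted p under 0.05. Without the footprint libraries egfp-3 and fbl-1_1, 9 of the 10 were above 0, and without the control mRNA library egfp-2 their median was 0.06. The 30 solute carriers had a median of 0.19, with 18 above and 12 below 0. Muscle genes (20 members, median -0.15) and genes of microtubules and motors (28 members, median -0.10, none higher and 4 lower at an unadjusted p under 0.05) were near or below 0. Of the remaining lists, none had more than 3 members at an unadjusted p under 0.05 in 1 direction.

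**Figure D4:**
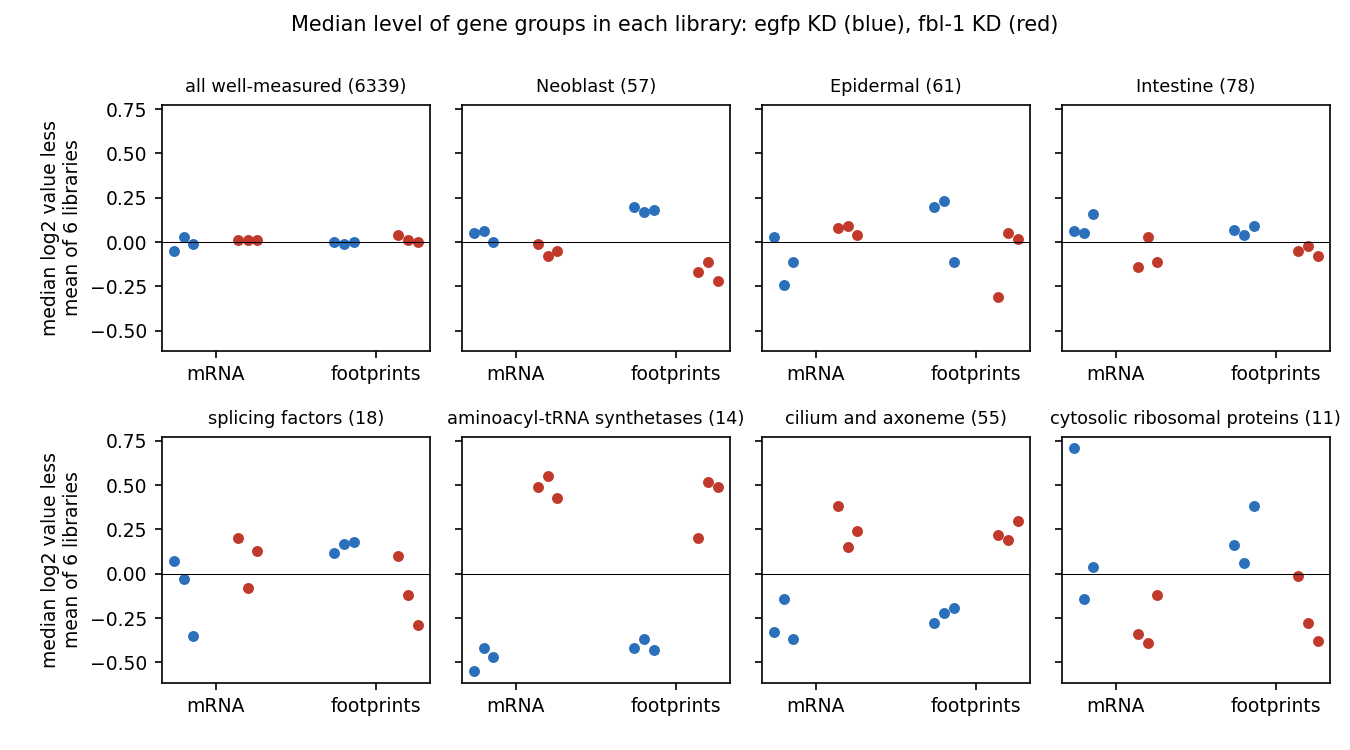
Median over each gene group of the log2 value less the mean of the 6 libraries of its assay (y axis), for each *egfp* KD (blue) and *fbl-1* KD (red) library, with the number of well-measured genes in parentheses. Aminoacyl-tRNA synthetases and cilium genes are higher in both assays under *fbl-1* KD, while genes with the neoblast label lie between -0.22 and -0.11 in its footprint libraries and between 0.17 and 0.20 in the controls.

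Cell type labels, which the study took from a published single-cell atlas, were used for genes with 1 label only. The 57 well-measured genes with the neoblast label had a median TE change of -0.27, and 45 of them were below 0. At an unadjusted p under 0.05, 15 had a lower and none a higher TE, *fbl-1* itself among them, with *NUBP1*, *GADD45GIP1*, *SNRPG*, *API5*, *EIF4EBP2* and *RPA2* (-0.81, SE 0.28, a subunit of the single-strand binding complex of DNA replication). With 1 library left out, *SNRPG* kept an unadjusted p under 0.05 in 3 of 12 fits and *EIF4EBP2* in 6 (limma), where *NUBP1*, *GADD45GIP1*, *API5* and *RPA2* kept it in 12. All of these but *SNRPG* were named for their p for TE in these same libraries, so these counts are in part set by the choice. Of the genes named here, *fbl-1*, *GADD45GIP1* and *RPA2* met the rule through the group where they were higher, so their values are a description. None passed the adjusted threshold. Over all genes with any cell type label, 20 had a higher and 65 a lower TE at that p among 1148, with a median of -0.06.

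The neoblast-labelled genes separated the libraries in footprints. Their median footprint level was 0.17 to 0.20 above the mean in the 3 control libraries and between -0.22 and -0.11 in the 3 labelled *fbl-1* KD. In mRNA the controls lay between 0.0 and 0.06 and the *fbl-1* KD libraries between -0.08 and -0.01. By single genes, 4 of the 57 rose and 9 fell in mRNA, and 1 rose and 2 fell in footprints. Over all the well-measured genes, 4.53% rose and 3.55% fell in mRNA, and 0.694% rose and 0.805% fell in footprints. Of the 1148 with any cell type label, 210 rose and 108 fell in mRNA, and 23 rose and 24 fell in footprints. Among the 49 neoblast-labelled genes in the part held of the *fbl-2* KD table, the median TE change was -0.26, with 38 below 0. Without the footprint libraries egfp-3 and fbl-1_1 it was -0.23 over all 57, with 14 lower and none higher.

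Of the 3 defining markers of neoblasts, 2 fell in mRNA and 1 in footprints, and the median TE change was -0.11. *piwi-1*, an Argonaute-family protein of stem cells, had mRNA values of 12299, 12634 and 13971 in the controls and 7610, 8794 and 7534 under *fbl-1* KD, a fall of 0.70 (adjusted p = 0.00604, limma). Its footprints read 13928, 13922 and 10816 against 5984, 8362 and 8574, and its TE change was -0.06 (95% interval -0.53 to 0.41). *MCM2*, part of the replicative helicase, fell by 0.43 in mRNA (adjusted p = 0.0438, limma) with a TE change of -0.11. *vasa-1*, a germline and stem cell helicase, fell in footprints by 0.70 (adjusted p = 0.0366, limma), and its TE change was -0.31 (SE 0.16).

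Genes with the epidermal label had a median TE change of -0.32 over 61 genes, with 47 below 0, and of -0.33 over the 47 in the part held of the *fbl-2* KD table. At an unadjusted p under 0.05, 11 were lower and 1 was higher, none passing the adjusted threshold. Over all the well-measured genes 3.28% were lower and 2.68% higher at that p. Of the 1148 with any cell type label, 65 were lower and 20 higher. *SSR4*, a subunit of the translocon-associated complex, had footprints of 1602, 1668 and 1262 against 581, 1111 and 1010 and a TE change of -0.91 (SE 0.30). This group followed the footprint libraries that stood apart: its median footprint level was -0.11 in egfp-3 and -0.31 in fbl-1_1, against 0.20 and 0.23 in the other controls and 0.02 and 0.05 in the other *fbl-1* KD libraries. The median TE change was -0.17 without fbl-1_1, -0.41 without egfp-3 and -0.27 without both. Without both, 19 of the 61 were lower and 2 higher at an unadjusted p under 0.05.

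Of the markers of the epidermal lineage, *prog-1*, expressed in early epidermal progeny, fell in mRNA by 0.57 (adjusted p = 0.0427, limma). Its footprints read 709, 739 and 707 against 227, 334 and 436, with a change of -1.16 (adjusted p = 0.0527, limma) and a TE change of -0.59 (SE 0.30), which was -0.34 without fbl-1_1. *egr-5*, a zinc-finger regulator of later progenitors, rose in mRNA by 0.52 (adjusted p = 0.0423, limma) at a footprint change of 0.13 and a TE change of -0.40. *zpuf-4* had a TE change of -0.44 (SE 0.38) and *AGAT-1*, a marker of late progeny, one of -0.20 (SE 0.19).

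Intestine-labelled genes held many mRNA falls. Of 78 members 28 fell and 11 rose in mRNA, where 3.55% and 4.53% of all the genes did, and of the 60 in the part held of the *fbl-2* KD table, 28 fell and 3 rose. Of all 1110 well-measured genes in that part, 122 fell and 139 rose. In footprints 8 of the 78 fell and 2 rose, where 0.805% and 0.694% of all the genes did. The median TE change of the intestine-labelled genes was 0.08, with 4 higher and 1 lower at an unadjusted p under 0.05. Neural genes had a median TE change of -0.08 over 96 members, muscle genes -0.10 over 35 and genes of cathepsin+ cells, a phagocytic lineage, -0.12 over 84.

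Signalling genes that the study followed did not stand out in TE. *FZD5* (0.37, SE 0.22), *FZD4* (SMED30023158, 0.54, SE 0.31; SMED30010183, 0.03, SE 0.24), all Wnt receptors, *wntless* (0.21, SE 0.35), which carries Wnt ligands to the surface, *glypican-1* (0.21, SE 0.15), and the wound-response factors *jun-1* (-0.22, SE 0.23) and *fos-1* (-0.12, SE 0.19) each had an unadjusted p above 0.05. The first *FZD4* gene fell in mRNA by 0.59 (adjusted p = 0.0268, limma), with control values of 323, 330 and 325 against 192, 244 and 215.

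Whether the same genes behaved differently under *fbl-2* KD was asked in 1 fit over all 24 libraries, each knockdown against its own controls. All 6339 genes were tested there, and in *fbl-2* KD alone none of them had a TE change past the adjusted threshold, with 90% between -0.53 and 0.44. The difference of the TE changes passed the threshold for none (0% of the 12074 genes tested higher, 0% lower), and its smallest adjusted p was 0.999 (limma). At an unadjusted p under 0.05, 101 genes had a higher TE change in *fbl-1* KD than in *fbl-2* KD (1.59%, against 1.5% of all genes tested) and 74 a lower one (1.17%, against 1.35%). Over the genes the TE changes in the knockdowns had a Pearson correlation of 0.33, and 61.4% had the same sign, as a description across genes that share library effects within each arm.

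Among named genes, the TE change of *fbl-1* was -1.49 under the *fbl-1* KD label and 0.26 in *fbl-2* KD, with the same limit. *RPS25*, a protein of the small ribosomal subunit, had 0.32 against -1.03, a difference of 1.35 (unadjusted p = 0.00204, limma). The cytosolic ribosomal proteins as a list had medians of 0.08 and -0.73. Other lists had medians of the same sign in both arms. Among them were splicing factors (-0.36 and -0.25), mitochondrial ribosomal proteins (-0.3 and -0.43), ribosome biogenesis (-0.26 and -0.22) and ion channels (0.17 and 0.19). Neoblast (-0.27 and -0.16) and epidermal labels (-0.32 and -0.25) were alike. The sign also differed for cilium, collagen, oxidative phosphorylation, intestine, pharynx and protonephridia lists, at 0.02 to 0.08 under *fbl-1* KD. No list difference was tested. *API5* had -0.64 against 0.15. *ATAD3B* was low in both, at -0.75 and -0.97, with a difference of 0.22 (unadjusted p = 0.562, limma).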

How the data were processed

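RNA-seq and Ribo-seq libraries of the *fbl-1* KD arm (3 per group and assay) were analysed, with the 12 libraries of the *fbl-2* KD arm for 1 comparison. Per the study's methods the authors removed rRNA reads, aligned the rest to a transcriptome with TopHat2 and counted unique reads with featureCounts. Gaps among low values correspond to reads times 1 factor, rounded, in the footprint libraries egfp-3 and fbl-1_1 and the mRNA library fbl-1-1. No factor was determined for the other libraries of this arm. The deposited whole numbers were therefore treated as a signal, no count test was run and the true depth of most libraries is unknown. Fold changes are on the log2(value + 1) scale, which understates low genes. limma 3.58.1 (R 4.3.3) with a mean-variance trend was fitted to genes with a value of at least 10 in at least 3 libraries of each table, and p-values were adjusted by Benjamini-Hochberg over all genes tested, threshold 0.05. The TE change subtracts the mRNA change from the footprint change in 1 fit of 12 libraries, unpaired, since footprint column names could not be tied to single samples. The fit was run on simulated data with independent noise, as a check of the code only. P-values measure the spread between these pooled samples.

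The members and gene lists were chosen with earlier results of these data known. Named genes were *fbl-1*, the 10 named genes with the smallest p for TE in each direction and 2 unnamed, the 5 largest called and non-overlapping changes per assay and direction, 3 per list (24 lists), those the study names, and 4 for the difference. Results of 1 named item are not reported here. Names and cell type labels came from the study's tables, 2529 of 16575 genes. Columns of the authors' own comparisons there were not used. Alternatives were the pseudocount, filter, scaling, variance prior, assay weights, a replicate block and each library left out.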

Additional observations from a re-analysis of the deposited data

How the results depend on the processing

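The absence of TE calls held in all 21 alternative fits, with 0 genes called in each, and the difference from *fbl-2* KD also gave 0 in its 32 alternatives. At an unadjusted p under 0.05 the TE change gave 378 genes. Leaving out 1 library at a time moved the mRNA count between 146 and 708 and the footprint count between 0 and 143 (main values 512 and 95). Without a trend in the variance prior the mRNA count was 37 and the footprint count 0. A filter on a mean of 100 gave 153 footprint calls, and leaving out both footprint libraries egfp-3 and fbl-1_1 gave 1816. The cause of these moves was not tested. With the mRNA replicate number as a replicate block 334 genes were called for mRNA. The mRNA numbers give no sign of a pairing, since deviations of same-numbered samples correlated at 0.07, -0.32 and -0.20. Those of unlike number correlated between -0.44 and 0.57. Footprint deviations correlated between the groups from -0.58 (egfp-2 with fbl-1_1) to 0.52 (egfp-3 with fbl-1_1). The cause of this shared variation was not tested. The footprint columns carry no usable number, so no paired TE fit was made. The median absolute TE change stayed between 0.170 and 0.211. Of 2352 values of named genes under alternatives, 0 were called and 0 turned the sign of a change larger than its standard error. The difference from *fbl-2* KD at an unadjusted p under 0.05 went from 175 to 275 genes without footprint library fbl-1_1.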

Other observations

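Lists not described above gave small TE values, none of them past the adjusted threshold (limma). The 4 histone genes were all below 0, with a median TE change of -0.23 on the log2 scale, 1 higher and 2 lower in mRNA and 1 lower in footprints. Of 5 DNA replication genes 4 were below 0 (median -0.11), as were the 3 RNA polymerase subunits (median -0.28). Chaperones had a median of -0.07 over 15 genes, proteasome subunits -0.10 over 3, oxidative phosphorylation 0.02 over 5, the vacuolar ATPase 0.04 over 2, and the secretory pathway -0.14 over 16. Lysosomal and digestive proteases had a median of -0.10 over 11 genes, with 4 higher and 3 lower in mRNA, collagens 0.06 over 5, and synapse genes -0.10 over 12. Parapharyngeal genes had a median of -0.09 over 20, with 6 higher in mRNA, protonephridial genes 0.06 over 17 and pharynx genes 0.04 over 8. Over all the well-measured genes, 4.53% were higher and 3.55% lower in mRNA, and 0.805% were lower in footprints.

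The 4797 well-measured genes in neither part of the study's tables had a median TE change of 0.02, with 139 higher and 127 lower at an unadjusted p under 0.05. The 746 in the part held for *fbl-1* KD had a median of -0.10, with 6 higher and 42 lower, and the 1110 in the part held for *fbl-2* KD -0.04, with 27 higher and 57 lower. The first of these tables is ordered by change in the same libraries, so its counts are no independent evidence.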
